A study of Mus musculus with 48 samples.

Results

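The 8 oligodendrocyte myelin genes Mbp, Mobp, Mag, Mog, Cnp, Mal, Cldn11 and Ugt8a were followed across 48 Affymetrix oligonucleotide arrays of mouse amygdala and hippocampus. They were taken by name, as every probe set that the platform annotation gives to a member alone, which yielded 14 of the 12422 probe sets that are not array controls, or 8 of the 8251 gene symbols named there. Mobp had 4 probe sets, Mbp, Mag and Cldn11 had 2 each, and the other genes had 1. Amygdala was measured on 6 FC, 6 CS and 10 NH arrays, and hippocampus on 8 FC, 8 CS and 10 NH arrays. The arm codes are not explained in the labels. Since the series title concerns associative and nonassociative learning, FC was read as fear conditioning, CS as the conditioned stimulus alone and NH as naive animals from the home cage. Strain, age and sex of the mice, and the time from the session to dissection, are not stated in the labels. The labels name the tissue, the arm and the processing batch of each array, and they do not say that the arrays of a group came from separate animals. All p-values below therefore measure only the spread between arrays, which may be partly technical.

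Myelin is the multilayered membrane that oligodendrocytes wrap around axons in the central nervous system. It insulates the axon and speeds conduction, and its lipid and protein make-up differs from that of other membranes. Mbp (myelin basic protein) holds the cytoplasmic faces of the sheath together, and Mobp (myelin-associated oligodendrocyte basic protein) is a smaller protein of the same compartment. Mal is a proteolipid of lipid-rich membrane domains, and Cldn11 forms the tight junctions between the myelin layers. Mag and Mog are immunoglobulin-type surface proteins, Mag on the innermost layer facing the axon and Mog on the outermost. Cnp encodes a phosphodiesterase of the non-compacted cytoplasmic channels, and Ugt8a the transferase that makes galactosylceramide, a main lipid of myelin. Transcription of these genes in maturing oligodendrocytes depends on the factors SOX10 and MYRF.

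The 250 bases before the annotated start of Mobp, Mog, Mal and Cldn11 are shown because these 4 genes had a probe set that lay lower on every amygdala array than on any hippocampus array. Mbp, which had one as well, is not shown. The sequences are from RefSeq, build GRCm38.p6, each read 5′ to 3′ on the strand of its gene. Capitals mark matches on either strand to ACAAAG, a core word bound by SOX factors, and to CTGGCAC or CTGGTAC, a word described for mouse MYRF. A further SOX core word, AACAAT, and the TATA box word TATAAA were also searched on both strands, each word counted by itself, and neither was found in the 4. The regions are chr9:120149492-120149741 (plus strand) for Mobp, chr17:37023399-37023648 (minus strand) for Mog, chr2:127656696-127656945 (minus strand) for Mal and chr3:31149670-31149919 (plus strand) for Cldn11.
Mobp: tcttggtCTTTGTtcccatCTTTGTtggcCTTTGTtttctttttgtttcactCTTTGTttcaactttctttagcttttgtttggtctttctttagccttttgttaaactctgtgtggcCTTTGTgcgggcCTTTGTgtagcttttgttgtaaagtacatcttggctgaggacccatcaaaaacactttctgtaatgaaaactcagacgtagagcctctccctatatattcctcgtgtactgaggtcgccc
Mog: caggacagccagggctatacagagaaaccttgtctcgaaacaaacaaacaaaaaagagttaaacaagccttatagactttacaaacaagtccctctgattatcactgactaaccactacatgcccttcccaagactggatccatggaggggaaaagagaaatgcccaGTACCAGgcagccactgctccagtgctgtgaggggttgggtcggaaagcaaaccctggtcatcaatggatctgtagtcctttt
Mal: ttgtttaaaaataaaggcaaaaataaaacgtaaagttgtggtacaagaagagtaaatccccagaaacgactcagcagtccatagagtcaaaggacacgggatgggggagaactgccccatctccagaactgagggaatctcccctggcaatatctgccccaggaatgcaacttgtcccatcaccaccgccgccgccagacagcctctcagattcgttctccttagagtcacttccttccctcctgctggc
Cldn11: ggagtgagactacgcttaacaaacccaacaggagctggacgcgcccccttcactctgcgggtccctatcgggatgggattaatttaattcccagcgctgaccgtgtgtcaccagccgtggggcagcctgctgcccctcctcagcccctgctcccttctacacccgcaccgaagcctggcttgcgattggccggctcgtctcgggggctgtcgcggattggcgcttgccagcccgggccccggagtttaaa

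The Mobp promoter held 6 matches to ACAAAG, all in the reverse sense as CTTTGT, between 243 and 120 bases before the start. This was the highest count among the 32851 promoters searched, of which 16.5% held at least 1 match and 2 held 5 or more. Mog held 1 MYRF word, 83 bases before the start, and 5.93% of promoters held at least 1. Mal, Cldn11 and Ugt8a held none of the words searched, and AACAAT (9.42% of promoters) and TATAAA (12.4%) occurred in none of the 7 members that have a promoter in that table. Cnp held 1 match to ACAAAG and 1 MYRF word, and Mag held the same pair at each of 2 overlapping starts and neither word at a further start. These are matches of letters in a short window and were not tested for binding.

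Most myelin probe sets ranked lower in amygdala than in hippocampus: the mean percentile was lower at 11 of the 14 and higher at 3. Because array medians of the deposited intensity were 52.3 to 56.1 in amygdala and 76.5 to 80.8 in hippocampus, each tissue was probably normalized on its own. Levels were therefore compared between tissues as percentiles among the 12422 probe sets of the same array, without a test, since each processing batch held a single tissue. Batch and tissue cannot be told apart in these percentiles. In such bulk tissue, fewer oligodendrocytes and less myelin transcript per cell cannot be told apart either. Across the 14 probe sets, 6 lay lower on all 22 amygdala arrays than on any of the 26 hippocampus arrays, 8 overlapped, and none lay higher throughout. Among all 12422 probe sets, 2.04% lay lower on every amygdala array and 2.34% lay higher.

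Among the structural proteins, Mbp was near the top of the array in both tissues. Its brighter probe set, 96311_at, had percentiles of 96.9 to 98.0 (median 97.4) on amygdala arrays and of 98.6 to 99.4 (median 99.2) on hippocampus arrays. The ranges did not meet, although a percentile this high leaves little room for a difference. The other Mbp probe set, 96310_at, ran the other way, with 80.0 to 84.6 (median 82.4) in amygdala and 76.9 to 81.4 (median 79.7) in hippocampus, and its ranges overlapped. Mobp was lower in amygdala at all 4 probe sets. The brightest, 100536_at, had percentiles of 85.2 to 94.5 (median 89.0) in amygdala and 97.3 to 98.7 (median 98.4) in hippocampus. The dimmest, 99046_at, gave the widest gap of all members, with 24.4 to 39.998 (median 30.5) in amygdala and 54.9 to 80.1 (median 68.6) in hippocampus. In both of these Mobp probe sets every amygdala array lay below every hippocampus array. The remaining probe sets, 99047_at (means 86.3 in amygdala and 94.7 in hippocampus) and 99048_g_at (66.5 and 87.2), overlapped between the tissues.

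The membrane proteolipid Mal and the tight junction protein Cldn11 differed by about the same amount. Mal had percentiles of 59.9 to 73.2 (median 65.7) in amygdala and 83.4 to 89.9 (median 86.7) in hippocampus. Cldn11 100044_at had 55.3 to 69.3 (median 62.2) in amygdala and 75.0 to 89.5 (median 84.0) in hippocampus. Both separated the tissues on every array, by mean percentile differences of -20.8 for Mal and -21.2 for Cldn11 (amygdala minus hippocampus). The dim second probe set of Cldn11, 161529_r_at, overlapped (8.29 to 23.7, median 15.1, in amygdala and 17.7 to 29.7, median 22.6, in hippocampus).

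Of the surface proteins, Mog separated the tissues and Mag gave different answers at its 2 probe sets. Mog had percentiles of 24.4 to 34.9 (median 28.9) in amygdala and 41.7 to 53.5 (median 46.8) in hippocampus, and these ranges did not meet. Mag 102405_at had 61.8 to 73.3 (median 68.4) in amygdala and 70.9 to 84.0 (median 77.7) in hippocampus, with some overlap. Mag 161846_r_at had 94.0 to 97.1 (median 96.3) in amygdala and 94.0 to 98.0 (median 95.6) in hippocampus. These ranges coincided almost fully. By the maker's naming, a probe set ending in _r_at was designed under relaxed rules, and which Mag probe set reads the transcript better was not tested.

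The enzymes were dim. Ugt8a had percentiles of 22.6 to 30.8 (median 27.2) in amygdala and 26.9 to 46.4 (median 41.1) in hippocampus, lower in amygdala on average and with overlap. Cnp had 22.6 to 28.5 (median 24.5) in amygdala and 19.9 to 28.8 (median 23.6) in hippocampus, so its tissues could not be separated. Cnp protein is abundant in myelin, yet its probe set was among the dim ones on every array. Levels of different probe sets depend on the probes as well as on the transcript, so the order of the genes on an array is not an order of abundance.

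**Figure D1:**
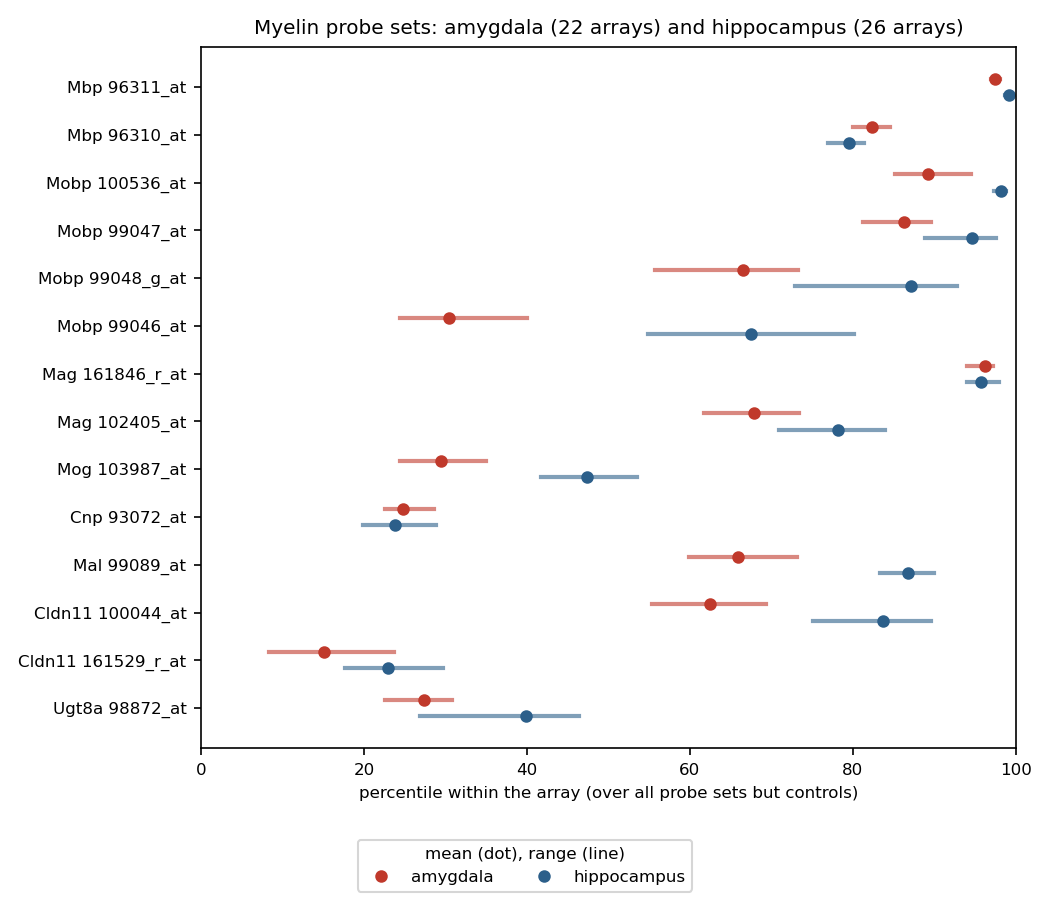
Percentile of each of the 14 myelin probe sets among the 12422 probe sets of its own array (x axis, percent), with the mean as a dot and the range over 22 amygdala and 26 hippocampus arrays as a line. Mobp 99046_at shows the widest gap (means 30.5 in amygdala and 67.4 in hippocampus), whereas Mag 161846_r_at and Cnp coincide.

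Other genes of the same cells showed the pattern in part. Of all 12422 probe sets, 2.04% lay lower on every amygdala array than on any hippocampus array, and 2.34% lay higher throughout. Of 25 further oligodendrocyte and myelin genes with a probe set, 8 lay lower in this way and none lay higher throughout. The widest of these gaps belonged to Evi2a, with mean percentiles of 53.4 in amygdala and 77.7 in hippocampus, followed by the actin-severing protein Gsn (43.2 and 63.6) and the septin Septin4 (72.2 and 86.5). Cers2, which makes the very long chain ceramides used for myelin lipids, had 24.0 in amygdala and 36.2 in hippocampus. The carbonic anhydrase Car2, the lipocalin Apod, Padi2 and Ndrg1 made up the 8. Genes of these lists are named here for their separation or gap, after their values were seen, besides Sox10, Pdgfra and Gfap. Of the lineage genes, Sox10 and Pdgfra did not follow. Sox10, the factor of the whole oligodendrocyte lineage, had mean percentiles of 85.6 in both tissues, and Pdgfra, the growth factor receptor of oligodendrocyte precursors, had 88.5 in amygdala and 83.0 in hippocampus, higher on every amygdala array. Of 9 such lineage and precursor genes, none lay lower throughout in amygdala. With a share of 2.04% over all probe sets, this count by itself says nothing particular about these genes.

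Some genes of other lists separated the tissues as well, where 2.04% of all probe sets lay lower and 2.34% higher on every amygdala array. Among 5 choroid plexus genes, the transthyretin gene Ttr (mean percentiles of 18.8 in amygdala and 53.4 in hippocampus) and Kl (21.9 and 48.2) lay lower on every amygdala array, and the other 3 overlapped. Of 11 genes listed for striatum, thalamus and hypothalamus, 9 overlapped. The peptide genes Penk (98.9 in amygdala and 89.0 in hippocampus) and Tac1 (65.1 and 30.4) lay higher on every amygdala array. Whether their signal came from amygdala itself or from neighbouring tissue was not tested. Of 14 astrocyte genes, 1 (Mt2) lay lower throughout in amygdala and 13 overlapped. Among these, the filament gene Gfap had 87.8 in amygdala and 93.3 in hippocampus, and the water channel Aqp4 had 75.8 and 87.4, the widest gap of that list. How much white matter each dissection held is not recorded in the labels, and the part of dissection in the myelin percentiles was not tested.

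Whether the behavioural session moved myelin transcripts was asked within each tissue, on log2 intensity and with the processing batch as a block. Of 7453 probe sets per tissue that remained after the dimmest 40% were left out, 9 member probe sets could be tested in amygdala and 11 in hippocampus. Cnp, Ugt8a and Cldn11 161529_r_at were too dim in both tissues, and Mog and Mobp 99046_at were also in amygdala. Their differences are from the same fit without the limit. No member probe set passed an adjusted p of 0.05 in any of the 6 comparisons of arms. Every difference from NH rests on the 4 NH arrays of a tissue that shared a batch with FC or CS arrays. In amygdala these were 3 arrays of batch 2 and 1 array of batch 3, and in hippocampus 2 arrays of batch 4 and 2 of batch 6.

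In amygdala of FC against NH, most myelin probe sets were higher in FC without passing. The 9 tested member probe sets had a median log2 difference of 0.17, 8 of them positive, whereas the median over all 7453 was 0.01. In batch 2 the median of the 9 was 0.21, with 7 positive and 2 negative, and in batch 3 it was 0.016, with 6 positive and 3 negative. None passed after adjustment (lowest adjusted p = 0.560), and 0.0939% of all probe sets did, all of them higher in FC. At an unadjusted p below 0.05, 4 of the 9 were higher and none lower, against 4.05% higher and 1.1% lower of all probe sets tested. These 9 probe sets read 5 genes, so they are not independent counts.

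Mag 102405_at gave the smallest p of the members. Its log2 level had a lowest, median and highest value of 6.68, 6.82 and 6.94 on the 6 FC arrays and of 6.32, 6.51 and 6.70 on the 10 NH arrays. A single FC array lay below the highest NH array. Within batches, all 4 FC arrays of batch 2 (6.68 to 6.85) lay above its 3 NH arrays (6.34 to 6.61), and both FC arrays of batch 3 (6.88 and 6.94) above its NH array (6.70). The difference was 0.25 ± 0.0691 (SE), a 1.19-fold higher level in FC, with an unadjusted p of 0.00150 and an adjusted p of 0.560. It was 0.26 in batch 2 and 0.21 in batch 3. This call changed with the fit. With array weights the adjusted p was 0.0102 (difference 0.26), but 911 of the 7453 probe sets passed there. Without the batch term it was 0.0103 (0.32), and 211 passed, against 7 in the main fit. The other Mag probe set, 161846_r_at, differed by -0.09 ± 0.0820 in the opposite direction (adjusted p = 0.894).

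Mobp followed in batch 2 more than in batch 3. Mobp 99048_g_at had 6.50, 6.65 and 6.93 (lowest, median, highest) on FC arrays and 6.04, 6.51 and 6.92 on NH arrays. The arms overlapped over most of their range. Its difference was 0.37 ± 0.118 (unadjusted p = 0.00481, adjusted p = 0.793), made up of 0.48 in batch 2 and 0.015 in batch 3. Mobp 99047_at differed by 0.26 ± 0.106 (adjusted p = 0.894), with 0.39 in batch 2 and -0.13 in batch 3, where both FC arrays lay below the NH array. The brightest Mobp probe set, 100536_at, had 8.08, 8.20 and 8.34 on FC arrays and 7.64, 7.95 and 8.34 on NH arrays, and all FC arrays lay above the NH arrays of their own batch. Its difference of 0.26 ± 0.137 did not reach an unadjusted p of 0.05 (p = 0.0686). The dim Mobp 99046_at, below the limit, differed by 0.33 ± 0.104 (adjusted p = 0.832 without the limit).

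Mal had 6.42, 6.60 and 6.74 on FC arrays and 6.32, 6.50 and 6.72 on NH arrays. In both batches every FC array lay above every NH array of that batch, and the difference was 0.17 ± 0.0735 (unadjusted p = 0.0264, adjusted p = 0.894). Mbp 96311_at had 9.38, 9.64 and 9.72 on FC arrays and 9.30, 9.49 and 9.74 on NH arrays, with nearly the same range in both arms. Its difference was 0.16 ± 0.0788 (adjusted p = 0.894), with 0.21 in batch 2 and 0.016 in batch 3. Cldn11 100044_at differed by 0.09 ± 0.114, with opposite signs in the batches (0.16 and -0.12). Below the limit, Mog differed by 0.21 ± 0.0804 (adjusted p = 0.940), Ugt8a by 0.06 and Cnp by 0.00. The dim Cldn11 161529_r_at had 3.08, 3.51 and 3.80 on FC arrays and 3.37, 3.78 and 4.25 on NH arrays, which overlapped, and differed by -0.09 ± 0.103.

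**Figure D2:**
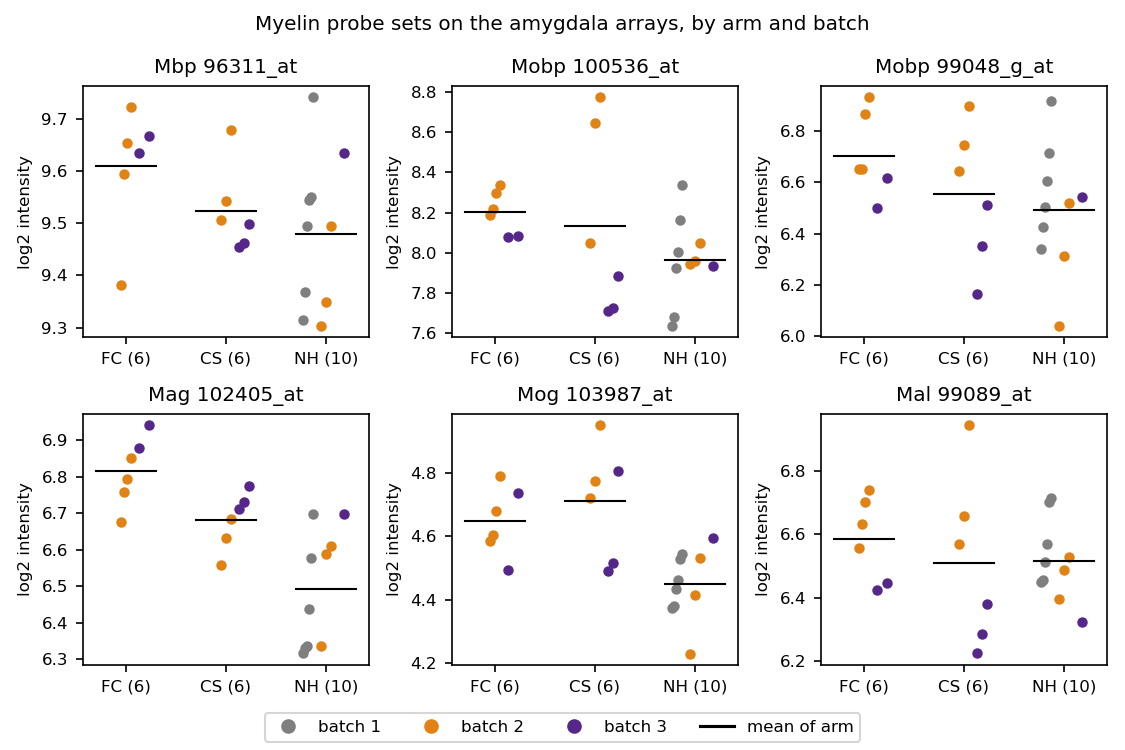
Log2 intensity (y axis) of 6 myelin probe sets on each amygdala array, by arm (FC, CS, NH) and coloured by processing batch, with the mean of each arm as a line. NH arrays of batch 1 have no FC or CS partner in their batch. In Mag 102405_at each FC array lies above the NH arrays of its own batch, whereas in Mobp 99048_g_at this holds in batch 2 and for 1 of the 2 FC arrays of batch 3.

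In amygdala of CS against NH, the members' differences depended on the batch. The 9 tested probe sets had a median log2 difference of 0.09 (all tested, 0.01), 8 positive and 1 negative, and none passed after adjustment (lowest adjusted p = 0.942), against 0.0134% of all probe sets. At an unadjusted p below 0.05, 1 was higher and 1 lower, against 2.64% and 1.27% of all. Mobp 99048_g_at had 6.17, 6.58 and 6.90 on CS arrays and 6.04, 6.51 and 6.92 on NH arrays, a range that nearly coincided, and differed by 0.25 ± 0.120. Mag 161846_r_at had 8.80, 9.02 and 9.39 on CS arrays and 9.002, 9.14 and 9.39 on NH arrays and differed by -0.18 ± 0.0835 (adjusted p = 0.942). The batches disagreed in sign for several genes. Mobp 100536_at differed by 0.51 in batch 2 and -0.16 in batch 3, and Mbp 96311_at by 0.19 and -0.16. The median of the 9 differences was 0.19 in batch 2 and -0.16 in batch 3. It was 0.043 without the NH array numbered 29798 and 0.16 without the NH array numbered 3142153, the only NH array of batch 3. Mog, below the limit, had 4.49, 4.75 and 4.95 on CS arrays and 4.23, 4.45 and 4.60 on NH arrays. 4 of its 6 CS arrays lay above every NH array, and the difference was 0.28 ± 0.0819 (unadjusted p = 0.00194, adjusted p = 0.986 without the limit), with 0.42 in batch 2 and 0.0089 in batch 3.

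In amygdala of FC against CS, 1 of the 9 tested member probe sets had an unadjusted p below 0.05. Of all probe sets, 0.832% were higher and 0.403% lower at that level. None passed after adjustment (0 of 7453 did). The member probe set was Mag 102405_at, with 6.68, 6.82 and 6.94 on FC arrays and 6.56, 6.70 and 6.77 on CS arrays. 3 of the 4 FC arrays of batch 2 and both of batch 3 lay above the CS arrays of their batch. The difference was 0.16 ± 0.0624 (unadjusted p = 0.0183, adjusted p = 0.999), with 0.14 in batch 2 and 0.17 in batch 3. The median over the 9 was 0.07. The FC and CS differences from NH share the same NH arrays, so they are not separate observations.

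In hippocampus, the members' differences had both signs. For FC against NH the 11 tested probe sets had a median log2 difference of 0.03 (all tested, 0.00), 7 positive and 4 negative, and none passed, against 0.0134% of all probe sets. The median was 0.0066 in batch 4 and 0.18 in batch 6. At an unadjusted p below 0.05 there was 1, lower in FC, against 0.738% lower and 1.53% higher of all. This was the second Mbp probe set, 96310_at, with 7.60, 7.74 and 7.88 on FC arrays and 7.69, 7.78 and 7.86 on NH arrays. The ranges overlapped, and the difference was -0.12 ± 0.0504 (unadjusted p = 0.0287, adjusted p = 1.00), with -0.15 in batch 4 and -0.11 in batch 6. The bright Mbp 96311_at had 10.45, 10.88 and 11.22 on FC arrays and 10.65, 10.83 and 11.10 on NH arrays and differed by 0.00 ± 0.0986, with a 95% interval of -0.21 to 0.20.

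Mobp again gave the widest intervals. Mobp 99047_at had 8.99, 9.37 and 9.87 on FC arrays and 8.52, 9.33 and 9.76 on NH arrays and differed by 0.29 ± 0.182, with an interval of -0.08 to 0.66. Its difference was 0.034 without the NH array numbered 100 and 0.52 without the NH array numbered 111. Mobp 99048_g_at differed by 0.29 ± 0.198 (0.045 and 0.52 without the same arrays), and Mobp 100536_at by -0.04 ± 0.135. Mag 102405_at, the member with the smallest p in amygdala, had 7.31, 7.67 and 8.05 on FC arrays and 7.47, 7.64 and 7.99 on NH arrays and differed by 0.15 ± 0.0924. Mal differed by 0.09, Cldn11 100044_at by 0.04, Mog by 0.03 and Mag 161846_r_at by -0.05. Below the limit, Ugt8a differed by 0.22 ± 0.145 and Cnp by 0.07. All of these arms overlapped on the arrays.

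For CS against NH in hippocampus, the 11 tested probe sets, which read 6 genes, had a median of 0.03, with 9 positive and 2 negative. These are not independent counts. The differences ran from -0.07 (Mbp 96310_at) to 0.13 (Mag 102405_at). None passed, against 0.0134% of all probe sets, and none had an unadjusted p below 0.05, against 1.03% higher and 0.416% lower of all. For FC against CS the median was 0.01, with 6 positive and 5 negative, and again none had an unadjusted p below 0.05 (0.429% of all were higher and 0.335% lower at that level, and 0 of 7453 passed after adjustment). The difference of Mobp 99048_g_at was 0.18 ± 0.151, and it was 0.56 in batch 4, -0.10 in batch 5 and 0.37 in batch 6. The widest 95% interval of a tested member reached 0.29 to either side of its estimate in amygdala and 0.41 in hippocampus. These intervals are not adjusted for the number of probe sets, so larger differences could also fail to pass. Mobp 99048_g_at in amygdala FC against NH, at 0.37, did not pass.

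**Figure D3:**
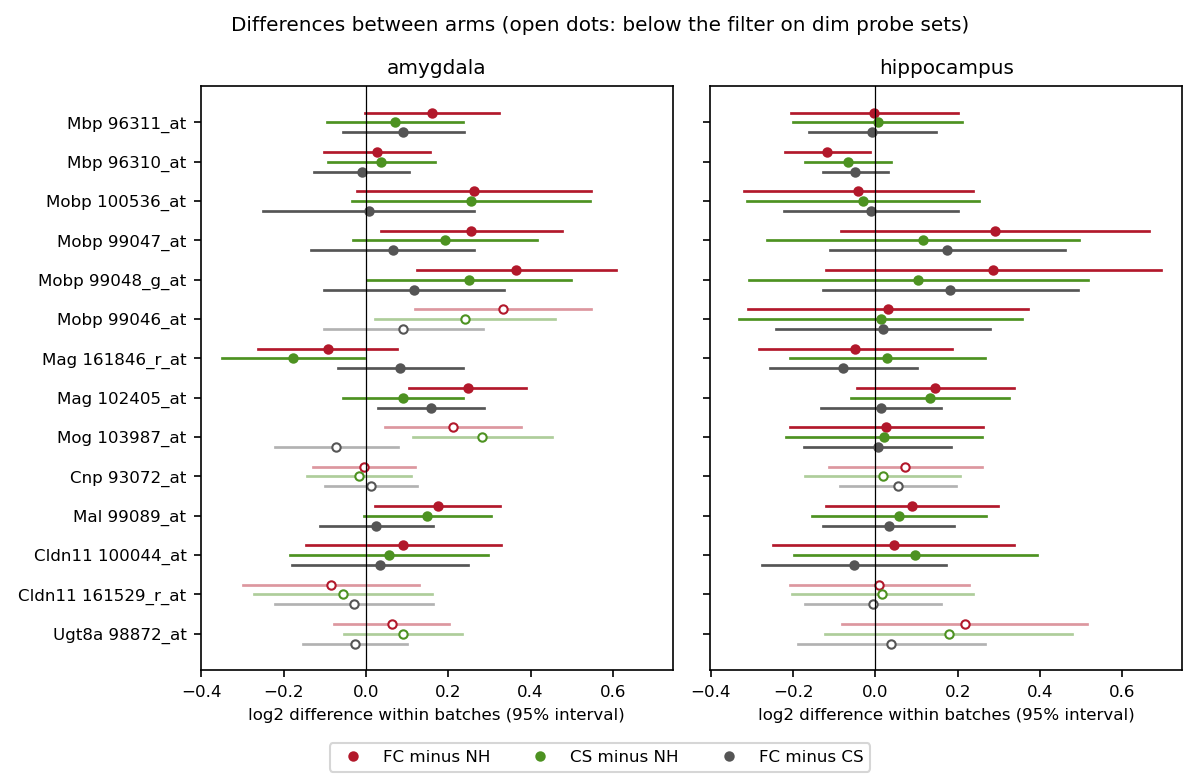
Log2 difference between arms within batches (x axis) with its 95% interval, for 14 myelin probe sets in amygdala and hippocampus, from the limma fits. Open dots lie below the limit on dim probe sets. In amygdala 8 of 9 tested FC minus NH differences are positive, and no member passed an adjusted p of 0.05 in either tissue.

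Whether the difference between arms differed between the tissues was tested in a joint fit of all 48 arrays, which treats the arrays of both tissues as independent. In 8 of the 22 amygdala arrays the label's number reads as the batch digit followed by 2 numbers of hippocampus arrays of the same arm, such as CS 21523 beside CS 15 and CS 23. Whether the tissues share animals is not stated in the labels and was not allowed for in the fit. No member passed, and 0 of 7664 probe sets did for any of the 3 comparisons. At an unadjusted p below 0.05, 3.35% of all probe sets differed between the tissues in FC minus NH, 2.47% in CS minus NH and 1.33% in FC minus CS, and no member did. The FC minus NH difference in amygdala exceeded that in hippocampus by 0.30 ± 0.203 for Mobp 100536_at, by 0.14 ± 0.0768 for Mbp 96310_at and by 0.10 ± 0.118 for Mag 102405_at. An arm effect on myelin genes in amygdala but not in hippocampus was thus not shown.

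The other oligodendrocyte genes in amygdala had both signs. In FC against NH, 11 of 21 tested genes of that list were positive and 10 negative, with a median of 0.00. None passed, against 0.0939% of all probe sets. The smallest p belonged to Gsn, at 0.26 ± 0.0947 (adjusted p = 0.894), and among lower genes to Gamt, a creatine synthesis enzyme, at -0.12 ± 0.0685 (adjusted p = 0.894). Of the lineage genes 4 were positive and 4 negative, with Pdgfra at 0.11 ± 0.0528, Sox10 at -0.06 ± 0.0651 and the receptor phosphatase Ptprz1 at -0.16 ± 0.0902 (adjusted p = 0.894 for Pdgfra and Ptprz1). Cholesterol is a main building block of myelin, and 10 of 13 genes of its synthesis were positive (median 0.04). Cyp51 was at 0.16 and Fdps at -0.02, and none passed. In hippocampus FC against NH, 10 of 13 genes of this list were positive as well (median 0.03). In amygdala, neuron genes had 11 of 14 positive and astrocyte genes 9 of 14. Endothelial and mural genes had 4 of 8 positive, choroid plexus genes 1 of 3 and blood genes 1 of 5. Microglia genes had 8 of 9 positive (median 0.09, Csf1r 0.13, Cx3cr1 -0.0044). At an unadjusted p below 0.05 in the limma fit, 3 of these 9 were higher and 0 lower, against 4.05% and 1.1% of all probe sets. Genes of striatum, thalamus and hypothalamus had 7 of 9 negative (median -0.06, Penk 0.23, Hcrt -0.12). The part of these lists in the myelin differences was not tested. On a list of Schwann cell genes, 1 of 3 passed, against 0.0939% of all probe sets. This was Egr2, at 0.43 ± 0.0820 (adjusted p = 0.0231), which drives myelination in Schwann cells and is also an immediate early gene of neurons. No gene of the other oligodendrocyte, lineage and cholesterol lists passed in any of the 6 comparisons of arms. At most 0.0939% of all probe sets passed in any of them, so this by itself says nothing particular about these lists. In hippocampus the same comparison gave 12 positive and 8 negative other oligodendrocyte genes (median 0.01), with the neuregulin receptor Erbb3 at 0.23 ± 0.0718 and the small heat shock protein Cryab at -0.14 ± 0.0619 (adjusted p = 1.00 for both).

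After the mean of each batch and arm was removed, 11 of the 14 member probe sets in amygdala and 13 in hippocampus varied between arrays more than the median probe set tested. The standard deviation of log2 level was 0.335 for Mobp 99048_g_at in hippocampus (more than in 99.3% of the probe sets tested), and 0.247 for Cldn11 100044_at (97.3%). In amygdala it was 0.217 for Mobp 100536_at (97.6%) and 0.202 for Cldn11 100044_at (96.1%). Mbp 96310_at varied least, with 0.0653 in hippocampus (3.50%).

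Whether the members varied together was asked of Mbp 96311_at against the brightest probe set of each other member, on values centred on batch and arm, over 25 hippocampus and 21 amygdala arrays. This gave 14 relations, tested by permutation within batch and arm. Mbp and Cldn11 100044_at varied together in both tissues. In amygdala Pearson's r was 0.63 (permutation p = 0.0107, adjusted p = 0.0375) and Spearman's rho 0.56 (p = 0.0286, adjusted p = 0.107). In hippocampus r was 0.76 (permutation p = 0.00188, adjusted p = 0.0263) and rho 0.51 (p = 0.0383, adjusted p = 0.107). Without the 2 arrays farthest from the median of Mbp, r was 0.66 in amygdala and 0.60 in hippocampus, and neither passed after adjustment. Within single batches r was 0.87 in amygdala batch 1 and 0.38 in batch 2, and 0.95 in hippocampus batch 5, 0.75 in batch 7 and -0.19 in batch 4. The dim Cldn11 161529_r_at gave r = -0.28 in amygdala and 0.13 in hippocampus, neither of which passed, and the mean of both Cldn11 probe sets against that of both Mbp probe sets gave 0.21 in amygdala, which did not pass, and 0.65 in hippocampus.

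Mag 161846_r_at and Cnp ran against Mbp in hippocampus. For Mag r was -0.65 (permutation p = 0.0101, adjusted p = 0.0375) and rho -0.59 (adjusted p = 0.107), and for Cnp r was -0.60 (permutation p = 0.00802, adjusted p = 0.0375) and rho -0.58 (adjusted p = 0.107). Without the 2 farthest arrays they were -0.51 and -0.56 and did not pass. In amygdala Mag 161846_r_at gave r = 0.31 and Cnp r = -0.47, and neither passed. The other Mag probe set gave 0.25 in hippocampus and 0.50 in amygdala. The remaining r values of the planned relations ran from -0.24 (Mog, amygdala) to 0.58 (Mobp 100536_at, hippocampus, adjusted p = 0.0769). No rho passed after adjustment over the 14. Among the other probe sets, added after the data were seen to make 26 relations, Mobp 99046_at varied with Mbp at r = 0.77 in amygdala (adjusted p = 0.0244, rho 0.78, adjusted p = 0.0133) and 0.65 in hippocampus (adjusted p = 0.0464, rho 0.61, adjusted p = 0.141). Within single batches its r was 0.91 in amygdala batch 1 and 0.76 in batch 2. In hippocampus it was 0.81 in batch 5, 0.86 in batch 7 and -0.60 in batch 4. In amygdala this probe set lay below the limit on dim probe sets.

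**Figure D4:**
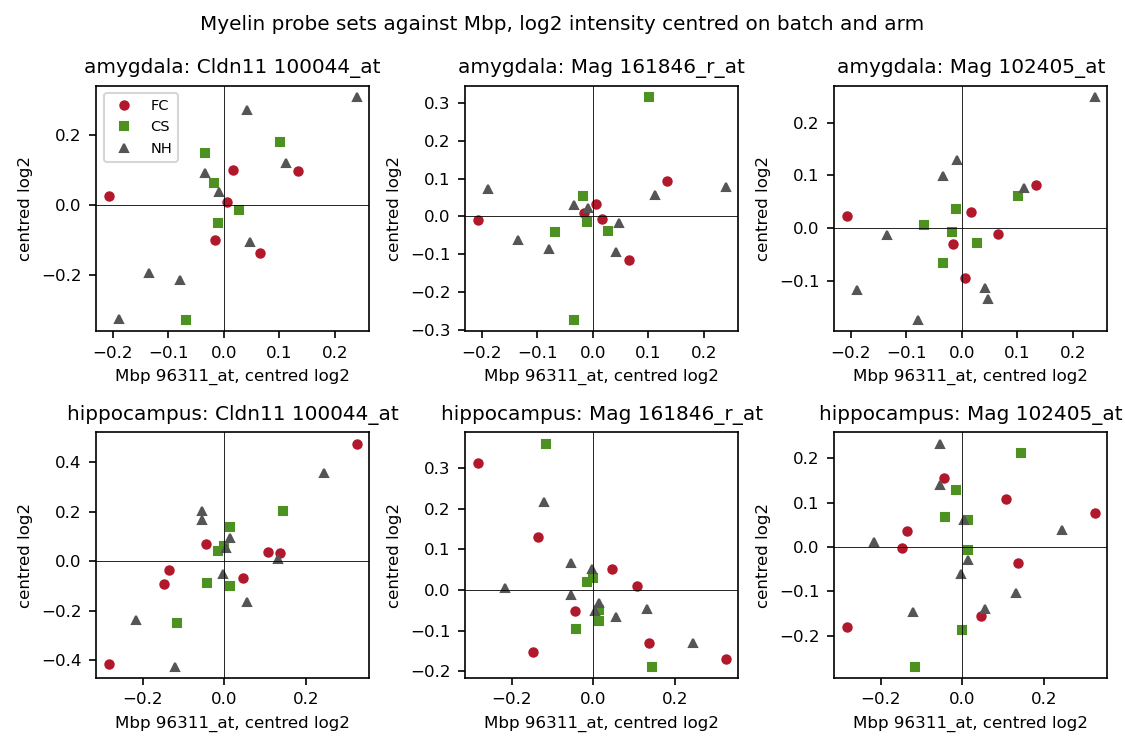
Log2 level of Cldn11 and of both Mag probe sets (y axes) against Mbp 96311_at (x axes), centred on batch and arm, 1 point per array, in 21 amygdala arrays (top) and 25 hippocampus arrays (bottom). Cldn11 lies along a rising line in both tissues (r = 0.63 and 0.76), whereas Mag 161846_r_at falls with Mbp in hippocampus (r = -0.65) and Mag 102405_at does not (r = 0.25).

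A variation shared by most of the array moved with these relations. The first principal component of the other tested probe sets held 41.2% of the centred variance in amygdala and 41.0% in hippocampus, and 61.3% and 63.2% of all probe sets correlated with it beyond 0.5 in size. In hippocampus Mbp 96311_at correlated with it at 0.70, Mobp 100536_at at 0.79, Mag 161846_r_at at -0.76 and Cnp at -0.83. With this component removed, an alternative chosen after seeing the data, Mbp against Cldn11 gave r = 0.58 in both tissues, Mag 161846_r_at -0.24 and Cnp -0.05 in hippocampus, and none passed. What the component reflects was not tested.

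Probe sets of the same gene did not always vary alike, given here as a description without a test. Mobp 99047_at and 99048_g_at correlated at r = 0.89 over the 21 amygdala arrays and 0.94 over the 25 hippocampus arrays, but 99047_at and 100536_at at 0.39 and 0.05. The Mag probe sets gave 0.42 in amygdala and -0.56 in hippocampus, the Mbp probe sets 0.11 and 0.14, and the Cldn11 probe sets 0.11 and 0.07. Between genes, the dim Ugt8a followed Mobp 99047_at at 0.57 in amygdala and 0.93 in hippocampus, and Mal followed Cldn11 100044_at at 0.41 and 0.82. Mag 161846_r_at varied with Cnp at 0.78 in hippocampus and at -0.21 in amygdala.

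**Figure D5:**
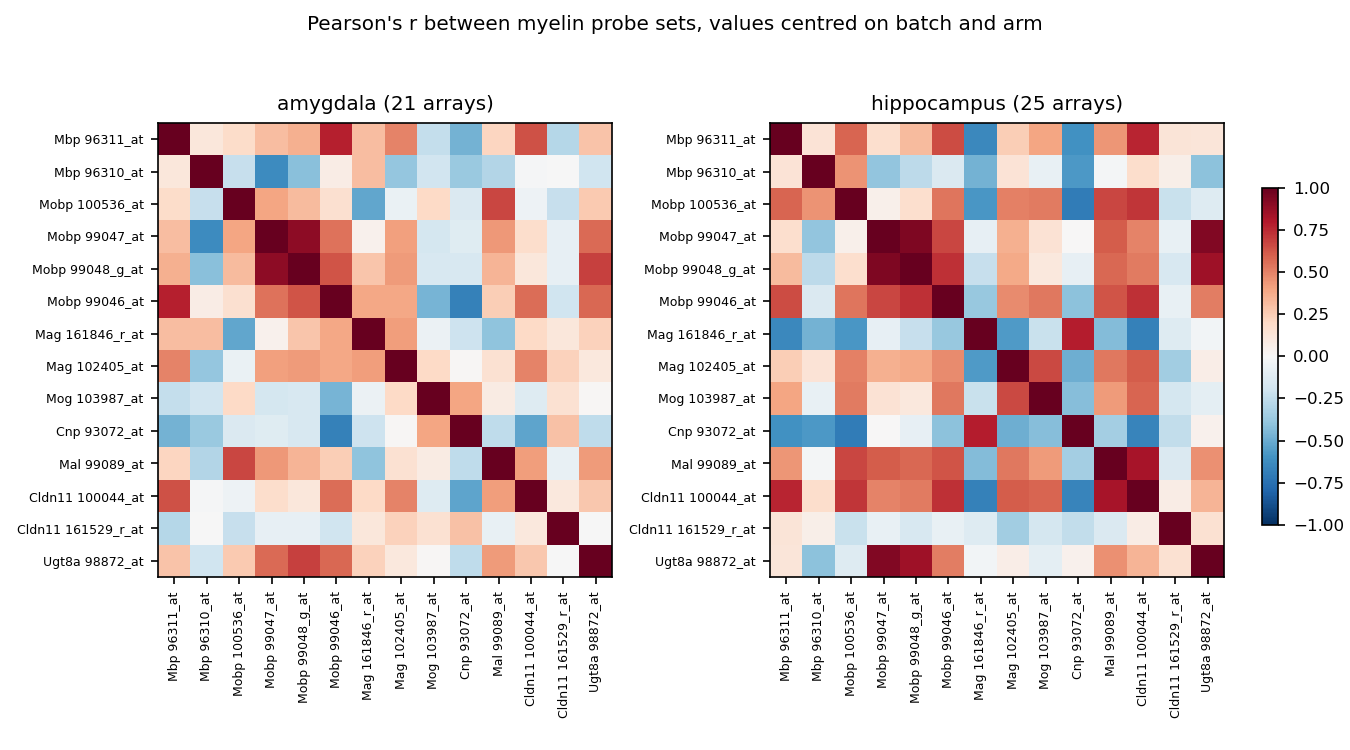
Pearson's r (colour, from -1 in blue to 1 in red) between each pair of the 14 myelin probe sets over 21 amygdala arrays and 25 hippocampus arrays, on log2 values centred on batch and arm. In hippocampus Mag 161846_r_at and Cnp form a pair (r = 0.78) that runs against most other members, and in amygdala this pair is not seen (r = -0.21).

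The probe sets whose pattern was most like the mean of the 8 members, by the lower of the r in either tissue over 6498 probe sets, were those of Rnf13 (0.63 in both tissues), Ssx2ip (0.61 in amygdala and 0.68 in hippocampus), Cct8 (0.60 and 0.66), Dpp6, Ipo7, S100pbp, Wbp4 and Ndufs4. None is on the lists of oligodendrocyte genes. The other oligodendrocyte genes had a median r with the member mean of 0.12 in amygdala and 0.33 in hippocampus, where all tested probe sets had -0.02 and 0.01 and neuron genes 0.11 and 0.40. Apod was highest of the oligodendrocyte list in hippocampus (0.70) and Ndrg1 in amygdala (0.60).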

How the data were processed

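Total RNA of each sample was made into biotin-labelled cRNA and hybridised to a one-colour array, per the labels. The authors deposited 1 linear intensity per probe set and array. RMA, the robust multi-array average, is named in the submitters' processing notes, without version or settings. Since RMA makes the distributions of arrays alike, a shift of most transcripts together would not show.

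Of 12488 probe sets, 66 controls were left out. Of the rest, 10833 name 1 gene, 396 several and 1193 none in the platform annotation. The log2 was taken with nothing added. Limma 3.58.1 in R 4.3.3 (lmFit, eBayes) was fitted to each tissue with terms for arm and (as a fixed block) batch, after the dimmest 40% were left out, with two-sided p-values adjusted over all 7453 probe sets by Benjamini and Hochberg. It was also run on simulated data with noise independent between probe sets. The differences planted there were larger than any member difference in the fits, so that run does not bear on differences of the members' size. Relations used 1e+05 permutations. In these fits, batches 1 (amygdala, 6 NH) and 7 (hippocampus, 6 NH) hold a single arm and inform the spread alone. Arrays of a tissue correlated at r from 0.982 to 0.999, and none were identical. The members, the lists, the rule for named genes (all members, and per list and comparison the smallest p in each direction) and tests were chosen with earlier results of these data known. Alternatives covered the batch term, the filter, normalization, probe set averaging, single batches and leaving out arrays.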

Additional observations from a re-analysis of the deposited data

Results flagged for a closer look

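A sample far from the rest of its group was found in 5 of 84 groups of member values examined, and chance alone flags about 1 in 20 groups. In hippocampus, the log2 level of Mobp 99048_g_at was 7.40 on the NH array numbered 100 (batch 4), where the other NH arrays had 8.04 to 8.61. In amygdala, Mobp 99046_at was 5.16 on the FC array numbered 25589 (batch 2), where the others had 4.51 to 4.75. In hippocampus, Cldn11 161529_r_at was 5.02 on the FC array numbered 55 (batch 6; others 4.64 to 4.79) and 4.39 on the CS array numbered 85 (batch 4; others 4.68 to 4.90). Ugt8a was 5.26 on the hippocampus CS array numbered 109 (batch 4), where the others had 5.69 to 6.04. The last 4 of these values come from dim probe sets that were not tested in that tissue.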

How the results depend on the processing

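No paired analysis was possible because the arms of a tissue share no replicate numbers. With each array left out in turn, no member passed in any comparison. The number of probe sets that passed then ran from 4 to 9 in amygdala FC minus NH (4 without the NH array numbered 28892), from 1 to 3 in amygdala CS minus NH (3 without NH array 16970), from 1 to 2 in hippocampus FC minus NH (2 without NH array 111) and from 0 to 1 in hippocampus CS minus NH (0 without NH array 100).

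Without the batch term the probe sets that passed numbered 211 in amygdala FC minus NH, 17 in amygdala CS minus NH and 7 in each hippocampus difference from NH, against 7, 1 and 1 with it, and 1 member passed, Mag 102405_at in amygdala FC minus NH (0.32, adjusted p = 0.0103). With array weights 911 passed there, with the same member (0.26, adjusted p = 0.0102), 5 in amygdala CS minus NH and 3 in hippocampus FC minus NH. Over 11 alternatives its difference was 0.21 to 0.32 and its adjusted p 0.0102 to 1.00. With the batch as a random block 4 passed in amygdala CS minus NH and 4 in hippocampus FC minus NH. A joint fit of both tissues gave 2 in hippocampus FC minus NH, and a fit of the compared arms alone 0 in hippocampus CS minus NH. Leaving out the dimmest 60%, or averaging the probe sets of a gene, gave 0 in amygdala CS minus NH and in both hippocampus differences from NH.

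In batch 2 alone 2 passed in amygdala FC minus NH, and the median member difference in CS minus NH was 0.19. In batch 3 alone 1 passed in FC minus NH and 1 in FC minus CS, and the medians were 0.016 in FC minus NH and -0.16 in CS minus NH. There, Mobp 99047_at reversed to -0.13 in FC minus NH and Mobp 99048_g_at to -0.20 in CS minus NH. In batch 4 alone 0 passed in hippocampus FC minus NH. In batch 6 alone, with 1 CS array, 4 passed in FC minus NH, 7 in CS minus NH and 38 in FC minus CS (member medians of 0.184 in FC minus NH and 0.178 in FC minus CS), where 1 member passed, Mag 161846_r_at (-0.60, adjusted p = 0.0176). Without single arrays the member medians ran from 0.14 to 0.24 in amygdala FC minus NH, from 0.043 to 0.16 in CS minus NH and from 0.021 to 0.092 in FC minus CS, and in hippocampus from -0.0080 to 0.10, from -0.0027 to 0.12 and from -0.023 to 0.045. The cause of these changes was not tested.

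Of 14 Mbp relations, 4 passed. Averaging probe sets left 2, and leaving out 2 arrays or removing the first component left 0. With the other probe set, Mbp against Mag in hippocampus reversed to 0.25 and against Cldn11 in amygdala to -0.28. Of 2120 member values under alternatives, 168 that were not called changed sign. Dim probe sets limit Cnp, Ugt8a and, in amygdala, Mog.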
